A study of Homo sapiens with 4 samples.

Results

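The nuclear genes of the respiratory chain and ATP synthase were chosen by symbol alone, as the protein-coding GENCODE 44 genes on chromosomes 1 to 22 and X whose symbols begin with NDUFA, NDUFB, NDUFC, NDUFS, NDUFV, SDH, UQCR, COX4I, COX5, COX6, COX7, COX8 or ATP5. The rule gave 102 of 19970 protein-coding genes. ZNF217, a zinc finger transcription factor that the study placed in the regulatory circuitry of acute myeloid leukemia, was mapped by CUT&Tag, in which a transposase tethered to an antibody cuts and tags the DNA around the antibody's target. The series labels 4 samples of untreated human leukemia lines, which are the ZNF217 and IgG libraries of MV4-11 and the ZNF217 and IgG libraries of U937, with 1 library per group. The 2 ZNF217 libraries came with peak lists, on which everything here rests, and the IgG libraries are not analysed here. Each list gave the positions of called peaks on hg38 without heights or read counts, so peak width in base pairs was the only measure of size and depth is unknown. Differences between MV4-11 and U937 have no replicate check, because each line had 1 library, and all intervals are 95% exact intervals that cover counting error only.

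The respiratory chain passes electrons from NADH through complex I, or from succinate through complex II, to complex III and then to complex IV, which reduces oxygen. Complexes I, III and IV pump protons across the inner mitochondrial membrane, and ATP synthase uses their return to make ATP. Except for complex II, each of these machines combines nuclear-encoded subunits with subunits encoded by mitochondrial DNA, and the factors NRF1, GABPA (an ETS factor) and YY1 are known for binding promoters of the nuclear subunit genes. The 13 protein-coding genes of mitochondrial DNA lay outside the rule, and neither list held a peak on mitochondrial DNA. By role the members were 79 core subunits, 12 assembly factors, 7 isoforms restricted to some tissues or states, 2 gene copies and 2 readthrough genes, the readthrough genes sharing promoters with NDUFC2 and ATP5MF. By complex they were 46 genes of complex I, 8 of complex II, 9 of complex III, 19 of complex IV and 20 of ATP synthase.

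Promoter sequences are given for 5 members whose 250 bases before the start site held the letters of both an NRF1 motif (GCGCATGC) and an ETS motif (CCGGAAG), searched on both strands. Capitals mark the NRF1 and ETS letters, and all sequences run 5′ to 3′ on the gene's strand from RefSeq, build GRCh38.p14. The regions are chr2:97645812-97646061 (plus strand) for COX5B, chr12:120437863-120438112 (plus strand) for COX6A1, chr11:61429874-61430123 (plus strand) for SDHAF2, chr1:17054033-17054282 (minus strand) for SDHB and chr11:112086623-112086872 (plus strand) for SDHD. COX5B and COX6A1 encode subunits of complex IV, SDHB and SDHD encode subunits of complex II, and SDHAF2 encodes the complex II assembly factor that helps attach FAD. All 5 had a ZNF217 promoter peak in both lines. In SDHAF2 an ETS match and an NRF1 match overlapped, and in SDHD the NRF1 letters were present on both strands of an overlapping run.
COX5B: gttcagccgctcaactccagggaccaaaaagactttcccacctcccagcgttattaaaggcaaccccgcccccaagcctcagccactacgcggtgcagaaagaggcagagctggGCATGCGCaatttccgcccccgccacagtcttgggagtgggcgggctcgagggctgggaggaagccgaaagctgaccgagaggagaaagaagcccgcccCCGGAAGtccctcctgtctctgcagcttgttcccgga
COX6A1: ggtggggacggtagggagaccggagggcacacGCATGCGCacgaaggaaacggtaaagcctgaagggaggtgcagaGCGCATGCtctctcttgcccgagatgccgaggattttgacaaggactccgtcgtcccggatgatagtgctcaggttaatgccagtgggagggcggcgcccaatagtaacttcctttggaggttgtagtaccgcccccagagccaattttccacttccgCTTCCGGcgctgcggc
SDHAF2: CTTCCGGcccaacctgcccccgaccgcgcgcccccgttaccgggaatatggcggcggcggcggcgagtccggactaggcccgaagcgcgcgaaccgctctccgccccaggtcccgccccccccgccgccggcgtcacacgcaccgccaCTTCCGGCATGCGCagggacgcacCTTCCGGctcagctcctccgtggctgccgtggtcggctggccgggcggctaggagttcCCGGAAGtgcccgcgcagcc
SDHB: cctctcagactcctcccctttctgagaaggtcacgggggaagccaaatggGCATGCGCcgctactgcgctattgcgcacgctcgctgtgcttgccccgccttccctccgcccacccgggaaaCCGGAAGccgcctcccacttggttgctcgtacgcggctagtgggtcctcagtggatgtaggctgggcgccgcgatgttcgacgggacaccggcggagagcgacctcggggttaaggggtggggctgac
SDHD: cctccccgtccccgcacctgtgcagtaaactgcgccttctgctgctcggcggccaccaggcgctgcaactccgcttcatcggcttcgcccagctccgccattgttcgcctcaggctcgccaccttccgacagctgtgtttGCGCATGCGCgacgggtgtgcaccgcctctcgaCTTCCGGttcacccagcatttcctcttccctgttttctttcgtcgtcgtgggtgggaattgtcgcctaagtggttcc

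Short windows around the YY1 letters (AAGATGG, in capitals) are given for the 12 members in which those letters lay on the gene's strand just after the RefSeq start site and a window of 30 bases fitted the promoter sequence. In 11 of them, all but the assembly factor gene NDUFAF8, the ATG within the letters was an annotated start codon. The set includes 3 members with a peak in MV4-11 only (NDUFA12, NDUFA6 and NDUFB8) and the core subunit gene with a peak in U937 only (NDUFA9). The regions are chr4:674229-674258 (minus strand) for ATP5ME, chr12:95003662-95003691 (minus strand) for NDUFA12, chr19:54102868-54102897 (plus strand) for NDUFA3, chr22:42090726-42090755 (minus strand) for NDUFA6, chr19:8321340-8321369 (minus strand) for NDUFA7, chr12:4649116-4649145 (plus strand) for NDUFA9, chr17:81239319-81239348 (plus strand) for NDUFAF8, chr10:100529833-100529862 (minus strand) for NDUFB8, chr5:53560652-53560681 (plus strand) for NDUFS4, chr19:1383916-1383945 (plus strand) for NDUFS7, chr1:17054001-17054030 (minus strand) for SDHB and chr3:48609602-48609631 (minus strand) for UQCRC1.
ATP5ME: tcagggacAAGATGGtgccaccggtgcagg
NDUFA12: agcgaggcAAGATGGagttagtgcaggtcc
NDUFA3: cggagacaAAGATGGctgcgagtaagtgca
NDUFA6: gctttggcAAGATGGcggggagcggcgtcc
NDUFA7: gcggacggAAGATGGcgtccgccacccgtc
NDUFA9: tgtgggaaAAGATGGcggctgccgcacaat
NDUFAF8: acggacctAAGATGGcggcctccagggggc
NDUFB8: agaaggtgAAGATGGcggtggccagggccg
NDUFS4: cctgcagcAAGATGGcggcggtgtcaatgt
NDUFS7: ccgaggccAAGATGGcggtgctgtcaggtg
SDHB: caggagccAAGATGGcggcggtggtcgccc
UQCRC1: gcagctggAAGATGGcggcgtccgtggtct

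A gene was counted as occupied when a peak overlapped the window of 1 kb on each side of a transcription start site (TSS) of any of its transcripts. ZNF217 peaks lay at the promoters of nearly all members. In MV4-11 95 of 102 members were occupied, or 93.1% (86.4 to 97.2), beside 59.0% of all protein-coding genes. In U937 90 of 102 were occupied, or 88.2% (80.4 to 93.8), beside 50.5% of all protein-coding genes. Peaks in both lines were found at 87 members, or 85.3% (76.9 to 91.5), beside 47.4% of all genes. Another 8 members (7.84%) had a promoter peak in MV4-11 only, beside 11.6% of all genes, and 3 members (2.94%) had one in U937 only, beside 3.10% of all genes. Only 4 members (3.92%) had none in either line, beside 37.9% of all genes. Among the 79 core subunits 78 were occupied in MV4-11, 73 in U937 and 72, or 91.1% (82.6 to 96.4), in both, and none lacked a peak in both lines.

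The lists differed in length, with 36356 peaks in MV4-11 and 21737 in U937 on chromosomes 1 to 22 and X. When the MV4-11 list was shortened to its 21737 widest peaks, all of at least 530 bp, 86 members were occupied in MV4-11 against 90 in U937, and 79 in both. The U937 list was not cut and held peaks from 330 bp, so the limit on width fell on MV4-11 alone. Over all protein-coding genes the shares were 52% in MV4-11 against 50.5% in U937, and 44.2% in both. The 9 members then without an MV4-11 peak were NDUFA3, NDUFS4, NDUFAF5, SDHAF4, UQCRFS1, COX6B1, COX6C, COX7B and COX7C, whose widest peaks in the full MV4-11 list spanned 297 to 527 bp.

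**Figure D1:**
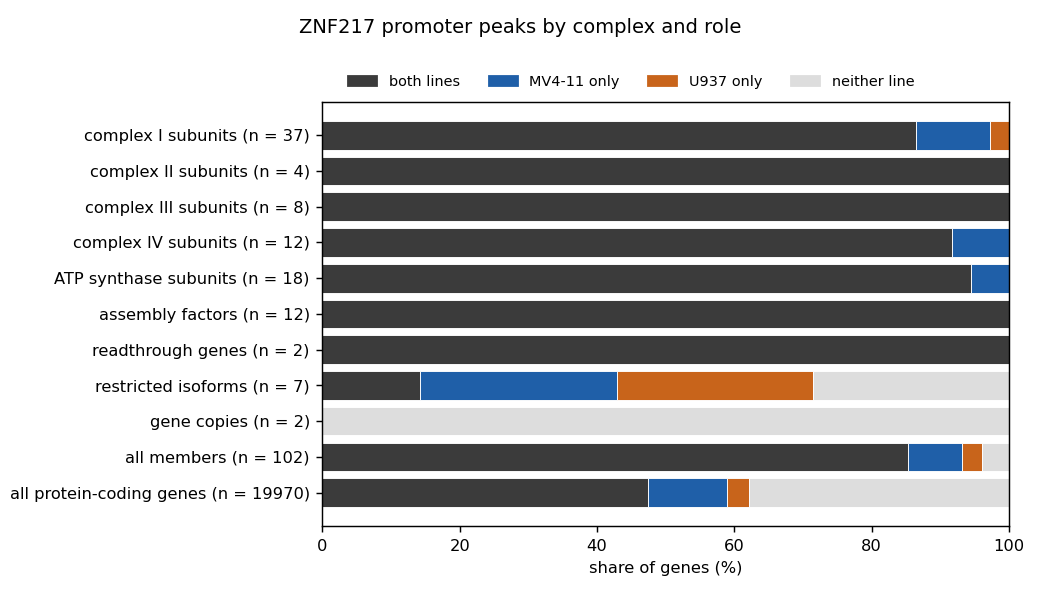
Share of genes (%) with a ZNF217 promoter peak in both lines, in MV4-11 only, in U937 only or in neither line, by complex for core subunits, by role for the other members, and for all members and all 19970 protein-coding genes. Bars for the core subunits and assembly factors are nearly all dark (both lines), the restricted isoforms are split, and 47.4% of all protein-coding genes have a peak in both lines.

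Complex I, the NADH dehydrogenase, was occupied in both lines at 41 of its 46 genes. All 7 genes of its catalytic subunits, the nuclear-encoded proteins that bind the flavin and iron-sulfur clusters or the ubiquinone site, had peaks in both lines. Of the 30 accessory subunits, which stabilise the enzyme without carrying electrons, 25 had peaks in both lines, 4 in MV4-11 only and 1 in U937 only. The accessory subunit genes with a peak in MV4-11 only were NDUFA10 (932 bp), NDUFA12 (872 bp), NDUFA6 (942 bp) and NDUFB8 (709 bp), and each of these peaks covered the canonical TSS. Measured from that TSS, the nearest U937 peak was 110.7 kb away for NDUFA10, 59.2 kb for NDUFA12, 10.8 kb for NDUFA6 and 5955 bp for NDUFB8. NDUFA9, an accessory subunit of the arm that carries the ubiquinone site, had an 884 bp peak in U937 that also covered a TSS of AKAP3 on the other strand, and its nearest MV4-11 peak was 43984 bp from the TSS. The 8 complex I assembly factors were occupied in both lines.

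The widest complex I promoter peak was that of NDUFB10, an accessory subunit of the membrane arm, at 4204 bp in MV4-11 and 4139 bp in U937, and it ran mostly downstream of the TSS. The assembly factor gene NDUFAF3 had a peak of 3466 bp in MV4-11, where U937 had 3053 bp. NDUFS6, which helps hold a zinc ion in the peripheral arm, had a single 3026 bp peak in MV4-11, where U937 had 2 peaks with a widest of 1470 bp. NDUFS4, an accessory subunit gene mutated in Leigh syndrome, had the narrowest MV4-11 value of the complex at 435 bp, with 472 bp in U937. The middle MV4-11 value was that of NDUFB5, at 945 bp in MV4-11 and 755 bp in U937.

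Complex II, succinate dehydrogenase, was occupied in both lines at all 8 genes. SDHA, the flavoprotein, had a 1617 bp peak in MV4-11 against 1513 bp in U937. SDHB, the iron-sulfur subunit, had an 843 bp peak in MV4-11, narrower than the 1129 bp in U937. The membrane anchors SDHC and SDHD had 1041 and 807 bp in MV4-11, and 822 and 700 bp in U937. In MV4-11 the assembly factors spread more widely than the subunits. SDHAF3 had the widest peak of the complex in MV4-11, 2136 bp, against 878 bp in U937, while SDHAF4 had the narrowest, 317 bp in MV4-11 against 866 bp in U937. SDHAF2, at 1252 bp in MV4-11 against 884 bp in U937, and SDHAF1, at 1196 bp in MV4-11 against 1018 bp in U937, lay between them in MV4-11, and in U937 they were the wider of the 4.

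Complex III, the cytochrome bc1 complex, was occupied in both lines at the 8 core subunit genes that the symbol rule took in. UQCRH, the hinge protein, had the widest peaks, at 2584 bp in MV4-11 against 2418 bp in U937. The structural subunits UQCRC1, with 917 bp in MV4-11 and 752 bp in U937, and UQCRC2, with 1085 bp in MV4-11 and 1117 bp in U937, had the middle MV4-11 values. UQCRFS1, the Rieske iron-sulfur protein, had the narrowest MV4-11 value at 441 bp, with 580 bp in U937. The ninth gene, UQCRHL, is a copy of UQCRH at another locus and had no promoter peak in either line. The nearest peaks to its TSS were 22029 bp away in MV4-11 and 18567 bp away in U937.

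Complex IV, cytochrome c oxidase, was the least often occupied, with peaks in both lines at 12 of 19 genes, and its count split by role. Of its 12 core subunits and associated proteins, 11 had peaks in both lines and COX7B had a peak in MV4-11 only. The COX7B peak, 446 bp wide, covered the TSS of COX7B and a TSS of MAGT1 on the other strand, and the nearest U937 peak was 3779 bp from the COX7B TSS. COX4I1, the widely expressed form of subunit IV, had the widest core peak in each line, which was 1335 bp in MV4-11 against 1744 bp in U937. COX6C had the narrowest member peak in MV4-11, 297 bp, against 483 bp in U937. NDUFA4, first assigned to complex I and now placed in complex IV, had 620 bp in MV4-11 and 1011 bp in U937. COX7A2L, which takes part in joining complexes into supercomplexes, had 844 bp in MV4-11 and 1038 bp in U937.

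ATP synthase was occupied in both lines at 18 of its 20 genes and at 17 of 18 core genes. ATP5F1B, the catalytic beta subunit, was the core gene with a peak in MV4-11 only. That peak was 816 bp wide and covered the canonical TSS, and the nearest U937 peak lay 8832 bp from it. The other genes of the F1 part of the enzyme had peaks in both lines at their canonical TSS. The 3 genes that encode the same c-ring subunit all had peaks in both lines, ATP5MC1 with 1425 bp in MV4-11 and 1251 bp in U937, ATP5MC2 with 1174 bp in MV4-11 and 626 bp in U937, and ATP5MC3 with 851 bp in MV4-11 and 953 bp in U937. ATP5F1D, the delta subunit of the F1 part, had the widest member peak of all in MV4-11, 4446 bp, against 1472 bp in U937. The middle MV4-11 values of this complex included ATP5MG with 1096 bp in MV4-11 and 1091 bp in U937, 99.5% of their joint span being common to both lines. ATP5F1A, the alpha subunit, had the narrowest widest peak in MV4-11, 760 bp. ATP5IF1, the inhibitor protein of the enzyme, had 1493 bp in MV4-11 and 929 bp in U937. ATP5MGL, a copy related to ATP5MG, had no promoter peak in either line, with the nearest peak to its TSS 5416 bp away in MV4-11 and 8934 bp away in U937.

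**Figure D2:**
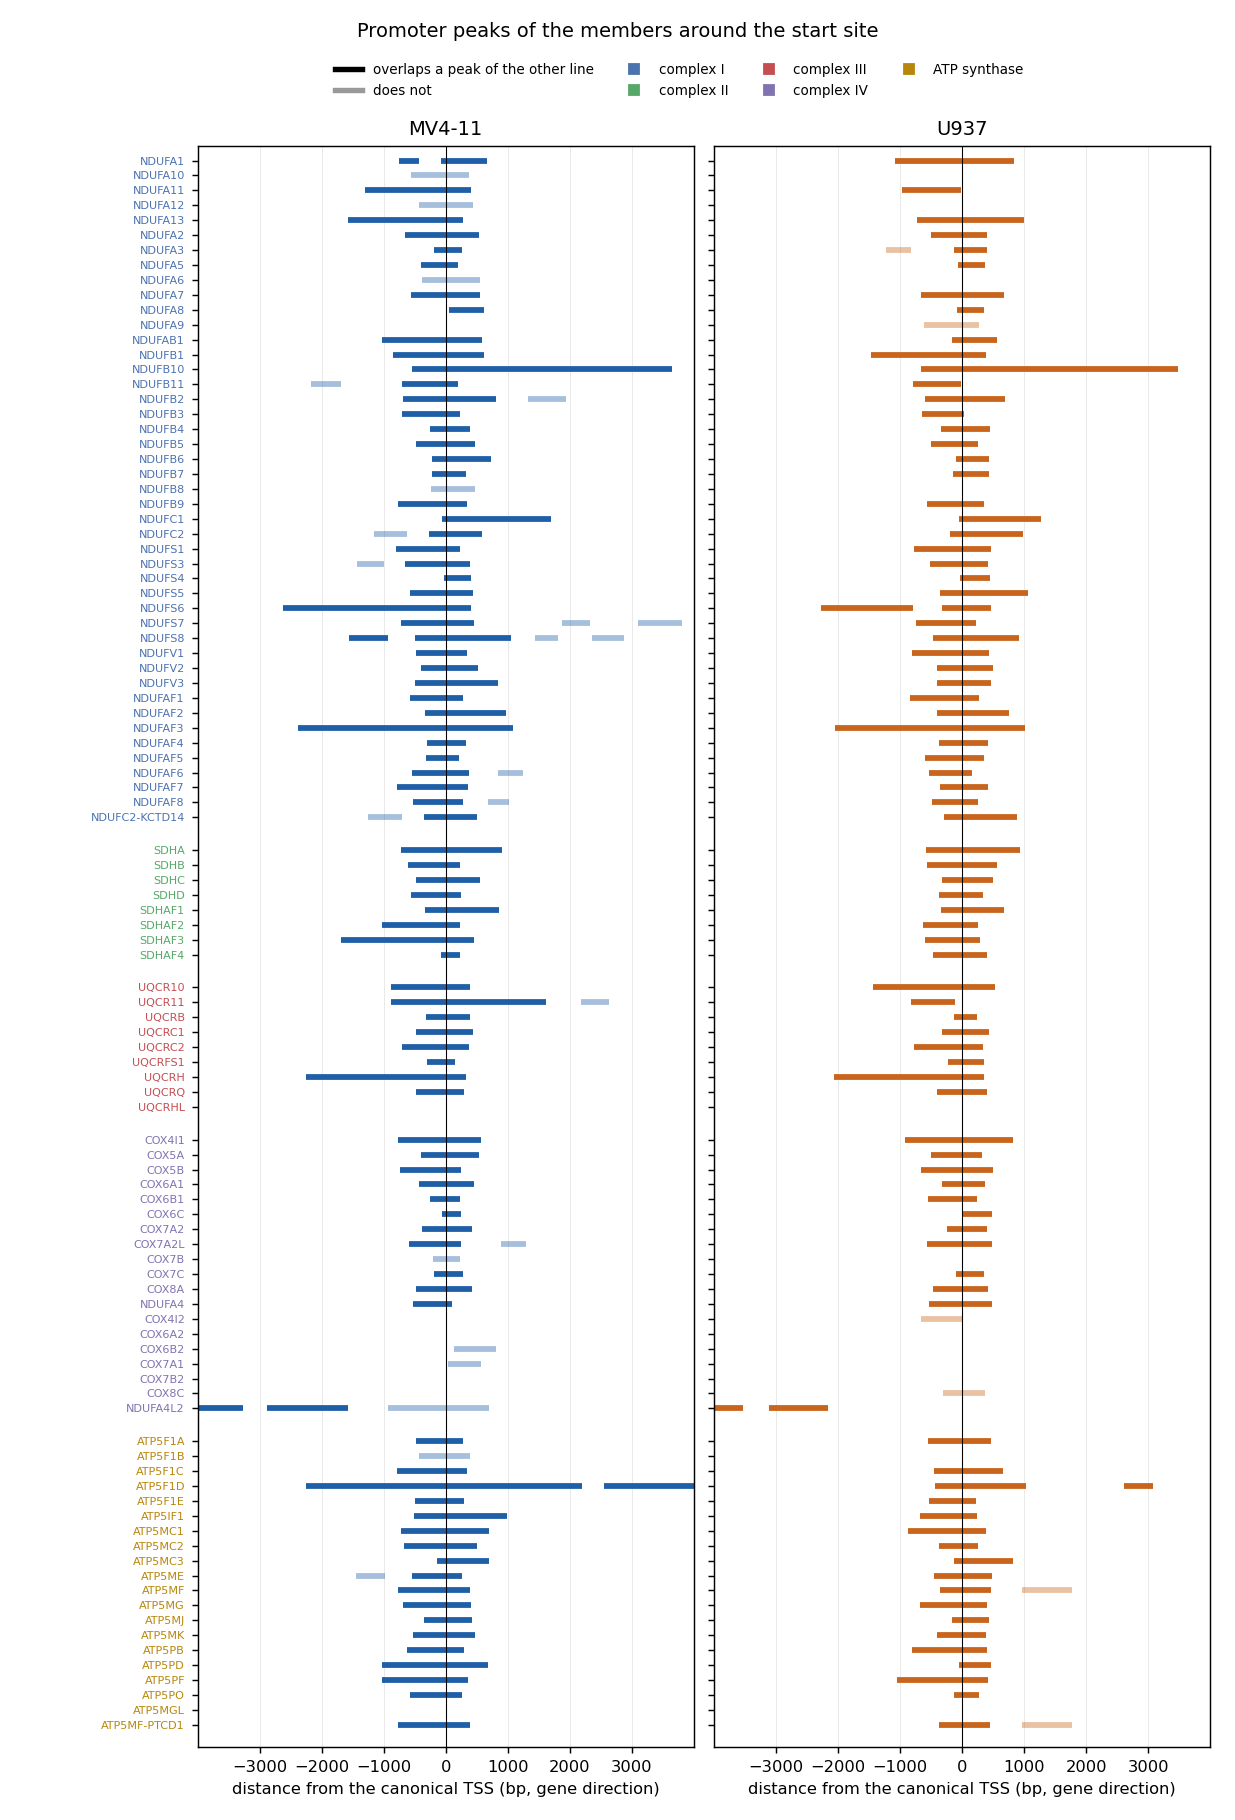
Extent of every promoter peak within 4 kb of the canonical TSS (horizontal axis, bp in the direction of the gene) for the members drawn, in MV4-11 (left) and U937 (right), with gene names coloured by complex. Solid bars overlap a peak of the other line and pale bars do not; 9 of 122 gene and peak pairs in MV4-11 and 6 of 101 in U937 lie beyond the axis, at other start sites. Most bars cross the start site, and most pale bars are narrow peaks beside a solid bar in MV4-11.

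The tissue-restricted isoforms were 7 genes. Of these 3 were occupied in MV4-11 (42.9%, 9.9 to 81.6), 3 in U937 (42.9%, 9.9 to 81.6) and 1 in both lines (14.3%, 0.361 to 57.9), beside 59.0% of all protein-coding genes in MV4-11, 50.5% in U937 and 47.4% in both. Neither line had a peak at 2 of them (28.6%, 3.67 to 71), beside 37.9% of all genes, and each interval includes the share of all genes. Of their 7 widely expressed partners 6 were occupied in both lines and COX7B in MV4-11. COX4I2, the lung form of subunit IV, had a 685 bp peak in U937 only, beside the COX4I1 peaks given above. COX6A2, the heart and skeletal muscle form, had no promoter peak in either line and its nearest peaks were 14.4 kb from the TSS in MV4-11 and 14.9 kb in U937, while COX6A1 had an 886 bp peak in MV4-11 against 688 bp in U937. COX6B2, a testis form, had a 666 bp peak in MV4-11 only, with its midpoint 472 bp downstream of the canonical TSS, which it did not cover. Its partner COX6B1 had 474 bp in MV4-11 and 791 bp in U937. COX7A1, the heart and skeletal muscle form, had a 539 bp peak in MV4-11 only, again downstream of the canonical TSS, and a U937 peak ended 1593 bp from that TSS. Its partner COX7A2 had 801 bp in MV4-11 and 640 bp in U937.

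COX7B2, a testis form of COX7B, had no promoter peak in either line, and its nearest peaks were 122.9 kb away in MV4-11 and 655.8 kb away in U937. COX8C, the testis form of subunit VIII, had a 672 bp peak over its TSS in U937 only, while COX8A had 900 bp in MV4-11 and 878 bp in U937, with 97.6% of the joint span in common. NDUFA4L2, a relative of NDUFA4 that is induced in hypoxia, was the isoform gene with peaks in both lines. MV4-11 had peaks of 1641, 1306 and 1525 bp there and U937 had peaks of 942 and 850 bp. The 1641 bp MV4-11 peak covered the canonical TSS and did not overlap a U937 peak, and neither U937 peak covered that TSS. Of the restricted isoforms, 1 of 7 had its canonical TSS under a peak in MV4-11 and 2 of 7 in U937.

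The 250 bases before the start sites of COX6A2, without a peak, COX8A, with peaks in both lines, and COX8C, with a peak in U937 only, are shown to set isoform promoters of different state side by side. Capitals mark ETS letters, which COX8A alone of the 3 held, and none held NRF1 letters. The share of G and C was 49.2% in COX6A2, 56.0% in COX8A and 65.2% in COX8C. The regions, on GRCh38.p14 from RefSeq, are chr16:31428361-31428610 (minus strand) for COX6A2, chr11:63974370-63974619 (plus strand) for COX8A and chr14:93346932-93347181 (plus strand) for COX8C.
COX6A2: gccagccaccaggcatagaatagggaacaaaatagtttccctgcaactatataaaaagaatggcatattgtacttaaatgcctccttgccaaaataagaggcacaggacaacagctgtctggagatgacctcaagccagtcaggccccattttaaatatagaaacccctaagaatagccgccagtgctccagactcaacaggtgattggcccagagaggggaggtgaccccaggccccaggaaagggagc
COX8A: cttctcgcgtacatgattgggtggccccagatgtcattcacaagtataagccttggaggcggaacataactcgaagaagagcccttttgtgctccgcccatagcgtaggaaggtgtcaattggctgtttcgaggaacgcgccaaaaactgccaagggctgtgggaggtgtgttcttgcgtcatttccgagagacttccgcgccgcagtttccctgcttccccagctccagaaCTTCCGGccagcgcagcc
COX8C: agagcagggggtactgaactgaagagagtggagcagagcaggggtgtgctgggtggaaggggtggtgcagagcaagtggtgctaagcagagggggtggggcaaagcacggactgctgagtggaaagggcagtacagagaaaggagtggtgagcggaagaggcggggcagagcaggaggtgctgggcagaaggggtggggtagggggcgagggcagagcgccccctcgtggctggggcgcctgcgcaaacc

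Most occupied members had a peak over the start site. A peak covered the canonical TSS in 92 of 102 members (90.2%) in MV4-11 and in 86 (84.3%) in U937. Over all protein-coding genes the shares were 48.9% in MV4-11 and 38.9% in U937. These shares include genes without a promoter peak. Among occupied genes only, the counts were 92 of 95 members in MV4-11 and 86 of 90 in U937. Over all occupied protein-coding genes they were 9764 of 11779 in MV4-11 and 7761 of 10091 in U937. The midpoint of the widest peak lay at a median of 59.5 bp upstream of the TSS in MV4-11 and 24 bp upstream in U937, while over all occupied genes it lay 7 bp downstream in MV4-11 and 16.5 bp downstream in U937. Most occupied protein-coding genes had a single promoter peak, 8498 of 11779 in MV4-11 and 8173 of 10091 in U937. So did most occupied members, 75 of 95 in MV4-11 and 78 of 90 in U937. The others were led by NDUFS8 with 5 peaks in MV4-11 and 2 in U937, NDUFS7 with 4 in MV4-11 and 1 in U937, NDUFAF6 with 4 in MV4-11 and 2 in U937, and NDUFS3 with 3 in MV4-11 and 2 in U937.

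In width the members were not above other genes. The widest promoter peak per occupied member had a median of 943 bp in MV4-11 (quartiles 796.5 and 1318, n = 95) and 928.5 bp in U937 (743 and 1208.75, n = 90), while over all occupied protein-coding genes it was 1084 bp in MV4-11 and 979 bp in U937. In MV4-11 the medians were 945 bp for complex I, 1118.5 bp for complex II, 1001 bp for complex III, 801 bp for complex IV and 1096 bp for ATP synthase. In U937 they were 960 bp for complex I, 881 bp for complex II, 774.5 bp for complex III, 809 bp for complex IV and 938.5 bp for ATP synthase. Complex IV had the lowest median in MV4-11 and complex III in U937, and the quartile ranges of the complexes overlapped in each line.

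For the 87 members with peaks in both lines, the MV4-11 to U937 ratio of widths had a median of 1.07 (quartiles 0.835 and 1.30), beside 1.14 (0.899 and 1.55) over all 9472 such genes. The MV4-11 peak was the wider in 52 members, or 59.8%, beside 64.8% of all genes, and the U937 peak in 35. The highest ratios were those of UQCR11, a small complex III subunit (2504 bp in MV4-11, 708 bp in U937, ratio 3.54), ATP5PD, a peripheral stalk subunit (1702 bp in MV4-11, 509 bp in U937, 3.34), ATP5F1D (3.02), SDHAF3 (2.43) and NDUFAB1, the mitochondrial acyl carrier protein (1618 bp in MV4-11, 724 bp in U937, 2.23). The lowest were those of SDHAF4 (0.366), NDUFA1, an X-linked accessory subunit (739 bp in MV4-11, 1925 bp in U937, 0.384), the assembly factor NDUFAF5 (527 bp in MV4-11, 950 bp in U937, 0.555), COX6B1 (0.599) and NDUFA4 (0.613). The low NDUFA1 value came with a split. The U937 peak of 1925 bp spanned the sites of both MV4-11 peaks, of 739 and 311 bp, and also covered a TSS of RNF113A. The ranking depends on which peaks are compared. In UQCR11 the U937 peak did not cover the canonical TSS. In ATP5PD the MV4-11 peak also covered a TSS of KCTD2 on the other strand, and the U937 peak did not. By the peaks over the canonical TSS, NDUFS6 had 3026 bp in MV4-11 and 800 bp in U937, a ratio of 3.78.

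**Figure D3:**
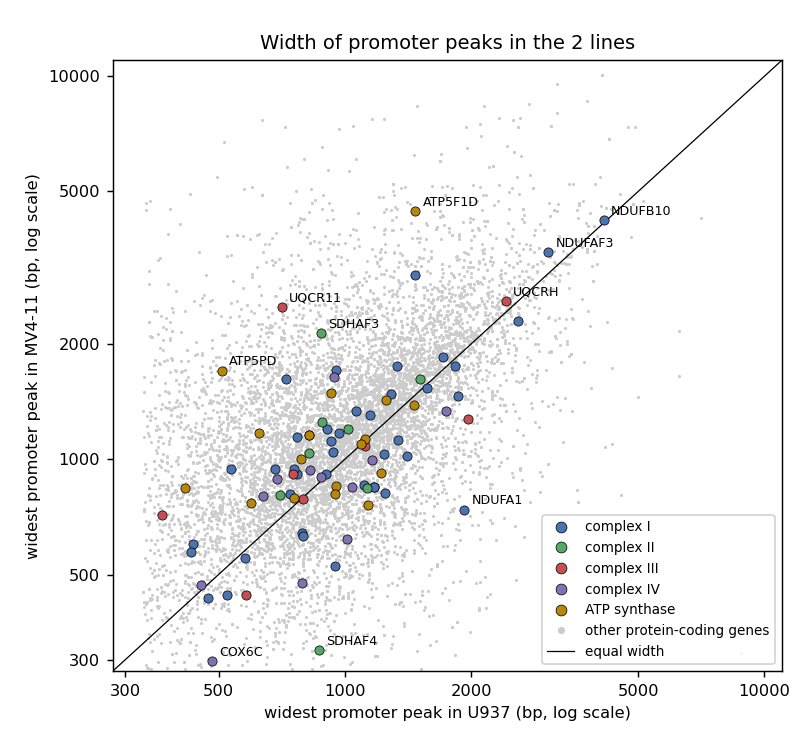
Width of the widest promoter peak in U937 (horizontal, bp, log scale) and MV4-11 (vertical, bp, log scale) for the 87 members with peaks in both lines, coloured by complex, over the other protein-coding genes in grey. The members lie among the grey points around the line of equal width, with UQCR11, ATP5PD and ATP5F1D furthest above it and SDHAF4 and NDUFA1 furthest below.

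In the full lists, member promoter peaks were shared between the lines in a larger share than promoter peaks as a whole. Sharing required at least 1 bp of overlap with any peak of the other list. Of 121 member promoter peaks in MV4-11, 95 were shared, or 78.5% (70.1 to 85.5), beside 62.6% of all promoter peaks, and of 99 in U937, 94 were shared, or 94.9% (88.6 to 98.3), beside 87.0%. With the MV4-11 list shortened to the length of the U937 list, the member shares were close, 86.0% in MV4-11 and 86.9% in U937. No share over all promoter peaks is given at that setting, so it does not show whether the members stood above them there. Unshared member peaks were narrower, with a median of 539 bp against 1003 bp for shared peaks in MV4-11, and 685 bp against 918 bp in U937. The same held over all promoter peaks, at 563 bp against 1102 bp in MV4-11 and 518.5 bp against 921 bp in U937.

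Many of the 26 unshared MV4-11 peaks belonged to a gene that also had a shared promoter peak, at the same or another start site. Besides the MV4-11 only genes and NDUFA4L2, such peaks belonged, among others, to NDUFB11 (475 bp), NDUFB2 (608 bp), NDUFB9 (644 bp), NDUFC2 (539 bp, also at the start of NDUFC2-KCTD14), NDUFS3 (441 bp), NDUFS7 (449, 713 and 399 bp), NDUFS8 (371 and 513 bp), NDUFAF6 (1054 and 411 bp), NDUFAF8 (336 bp), UQCR11 (441 bp), COX7A2L (391 bp) and ATP5ME (468 bp). In U937 the 5 unshared peaks were those of NDUFA9, COX4I2 and COX8C, a second NDUFA3 peak of 393 bp and a second ATP5MF peak of 805 bp, which also counted for ATP5MF-PTCD1.

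The widest peaks of the lines overlapped in 83 of the 87 members, by a median of 70.1% of their joint span, beside 65.4% over all such genes. The closest pairs after ATP5MG were NDUFV2, a catalytic subunit that carries an iron-sulfur cluster (915 bp in MV4-11, 903 bp in U937, 98.7%), and COX8A. The 4 members whose widest peaks lay apart were NDUFS8, NDUFV3, ATP5F1A and NDUFA4L2. In NDUFS8, NDUFV3 and ATP5F1A the canonical TSS was nevertheless under a peak in both lines. In ATP5F1A that peak was 760 bp in MV4-11 and 1004 bp in U937, while the widest U937 peak, 1138 bp, lay over another ATP5F1A start site shared with HAUS1. In NDUFAF6 the widest peak, 2293 bp in MV4-11 and 2591 bp in U937, likewise lay at a distant start site annotated to the gene and covered a TSS of CCNE2, so the width belongs to that site and not to the canonical promoter, where the peaks were 929 bp in MV4-11 and 689 bp in U937.

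Members often shared their promoter with another gene. A protein-coding gene on the opposite strand started within 1 kb upstream of the canonical TSS in 34 of 102 members (33.3%), beside 12.7% of all protein-coding genes. Partners included GABPA, which encodes a DNA-binding ETS factor and starts 68 bp from ATP5PF, the mitochondrial ribosomal protein genes MRPL36 (41 bp from NDUFS6) and MRPL47 (145 bp from NDUFB5), the import gene TIMM8B (75 bp from SDHD), the ribosomal protein gene RPS28 (120 bp from NDUFA7) and EEF1B2, a translation elongation factor gene (141 bp from NDUFS1). A peak at such a promoter cannot be assigned to either gene. Of the divergent members 32 of 34 (94.1%) had peaks in both lines, beside 82.8% of all divergent genes. Of the members without such a partner 55 of 68 (80.9%) had peaks in both lines, beside 42.3% of all genes without a partner.

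More start sites give a gene more windows in which a peak can fall. Members had a median of 6 TSSs and all protein-coding genes 5, with median summed windows of 4040.5 bp for members and 4627.5 bp for all genes. Among genes with 1 TSS, 5 of 7 members (71.4%) had peaks in both lines, beside 19.7% of all genes. With 2 to 3 TSSs the count was 13 of 17 (76.5%), beside 31.6%, with 4 to 7 it was 37 of 40 (92.5%), beside 49.8%, and with 8 or more it was 32 of 38 (84.2%), beside 66.2%. The members' share was thus the higher in each class.

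The letters of the 3 factors known for these promoters were more common in members than over all promoters. Promoter sequences of 300 bases, 250 before to 50 after the RefSeq start, matched 84 of the 102 members and 15394 protein-coding genes, and motifs were searched on both strands. NRF1 letters (GCGCATGC) were in 16 of 84 members, or 19% (11.3 to 29.1), beside 4.42% of all promoters and 6.63% of promoters with ZNF217 peaks in both lines. ETS letters (CCGGAAG) were in 25, or 29.8% (20.3 to 40.7), beside 14.8% of all promoters and 22.8% of those with peaks in both lines. YY1 letters (AAGATGG) were in 19, or 22.6% (14.2 to 33.0), beside 6.56% and 8.92%. The ETS share of members thus lay above all promoters, but its interval included the share of promoters with peaks in both lines. At least 1 of the 3 was present in 45 members (53.6%), beside 23.2% of all promoters and 34.0% of those with peaks in both lines, and all 3 in ATP5ME, a membrane subunit gene of ATP synthase, and in SDHB.

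Other letters went the other way or did not stand out. The SP and KLF letters GGGCGGG were in 25 members, or 29.8% (20.3 to 40.7), beside 47.5% of all promoters and 57.5% of those with peaks in both lines. The median share of G and C was 61.0% in members, beside 63.7% over all promoters and 66% over those with peaks in both lines. In 600 bases around the canonical TSS the GGGCGGG letters were in 42 of 84 members, beside 58.5% of all promoters. CCAAT, read by NF-Y, was in 27 members (32.1%), beside 36.6% of all promoters and 37.6% of those with peaks in both lines. The CRE letters TGACGTCA were in 5 members, or 5.95% (1.96 to 13.3), beside 2.76% and 3.78%. The TATA box letters TATAAA were in 6 members, or 7.14% (2.67 to 14.9), beside 9.41% of all promoters and 4.53% of those with peaks in both lines. CAGAA, the core letters of the published ZNF217 motif, were in 43 members, or 51.2% (40.0 to 62.3), beside 47.5% of all promoters and 42.0% of those with peaks in both lines. A match shows only that the letters are present.

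**Figure D4:**
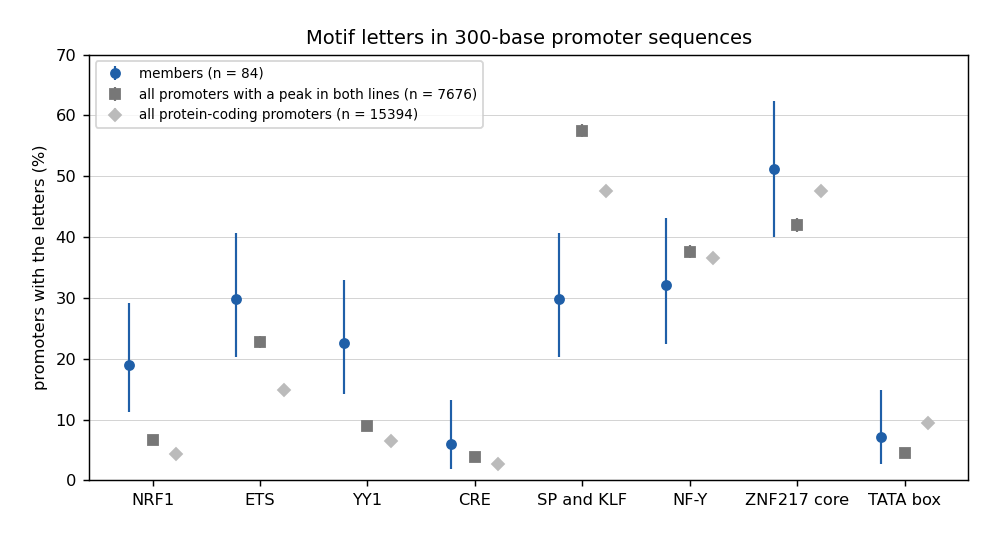
Share of 300-base promoter sequences (%) that hold the letters of each of 8 motifs on either strand, for 84 members (circles), 7676 promoters with ZNF217 peaks in both lines (squares) and 15394 protein-coding promoters (diamonds), with 95% exact intervals. Members lie above both backgrounds for NRF1 and YY1 and below both for the SP and KLF letters.

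The letters were also counted by complex. NRF1 letters were in 8 of 40 matched complex I genes, 3 of 7 in complex II, 0 of 7 in complex III, 2 of 16 in complex IV and 3 of 14 in ATP synthase. ETS letters were in 7 of 40 complex I genes, 4 of 7 in complex II, 3 of 7 in complex III, 5 of 16 in complex IV and 6 of 14 in ATP synthase. YY1 letters were in 10 of 40 complex I genes, 1 of 7 in complex II, 2 of 7 in complex III, 1 of 16 in complex IV (COX7C; 6.25%, beside 6.56% of all promoters) and 5 of 14 in ATP synthase. The intervals of the complexes overlapped for each motif.

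After the values were seen, the letters were set against the occupancy of each member. ETS letters were in 25 of the 74 matched members with peaks in both lines and in 0 of the 10 others, of which 6 had a peak in MV4-11 only, 2 in U937 only and 2 in neither. Over all promoters the ETS share was 22.8% with peaks in both lines, 12.5% with a peak in MV4-11 only, 14% in U937 only and 4.58% in neither. YY1 letters were in 15 of the 74 members with peaks in both lines (20.3%), in 3 of 6 with a peak in MV4-11 only and in 1 of 2 with a peak in U937 only, beside 8.92%, 4.73% and 6.67% of all promoters of those states. With so few members lacking a peak in a line, these counts are a description only.

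The short windows given above show where the YY1 letters lay. In 13 of the 19 members with the letters (68.4%, 43.4 to 87.4) they began on the gene's strand at or after the start site, beside 43.4% of the 1010 promoters with them. In 12 of the 19 members (63.2%, 38.4 to 83.7) the ATG within the letters was an annotated start codon, beside 315 of the 1010 promoters (31.2%). Of these 12, ATP5ME, ATP5PO, NDUFA3, NDUFA7, NDUFS4, NDUFS7, SDHB and UQCRC1 had peaks in both lines, NDUFA12, NDUFA6 and NDUFB8 in MV4-11 only, and NDUFA9 in U937 only. ETS letters lay within 60 bases before to 10 bases after the start in 17 of 25 members (68.0%), beside 56.9% of promoters with them, and NRF1 letters did so in 6 of 16 (37.5%), beside 48.2%.

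**Figure D5:**
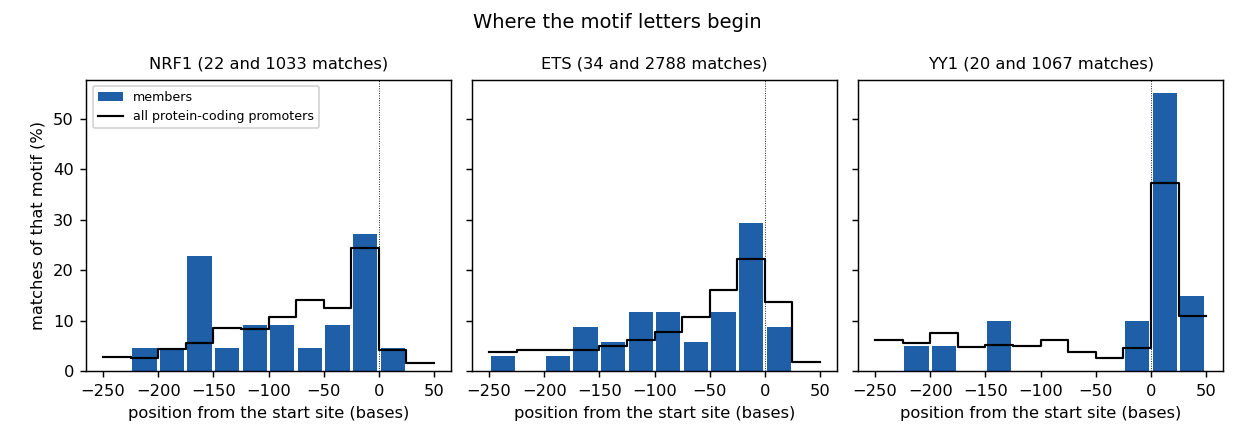
Position at which the NRF1, ETS and YY1 letters begin, in bases from the RefSeq start site (horizontal), as a share of all matches of that motif (vertical, %), for members (bars) and all protein-coding promoters (line). Of the 19 members with YY1 letters 13 have a match on the gene's strand at or after the start site.

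Other genes of the pathway, from a list of 77 that the symbol rule does not take in, were likewise mostly occupied. Promoter peaks were present at 74 of 77 in MV4-11 (96.1%, 89.0 to 99.2), at 70 in U937 (90.9%, 82.2 to 96.3) and at 69 in both lines (89.6%, 80.6 to 95.4), beside 59.0% of all protein-coding genes in MV4-11, 50.5% in U937 and 47.4% in both, and their median width was 1143 bp in MV4-11 against 972.5 bp in U937. The nuclear regulators NRF1 (1146 bp in MV4-11, 579 bp in U937), GABPA (1387 bp in MV4-11, 1459 bp in U937, the same peaks as ATP5PF) and YY1 (2845 bp in MV4-11, 740 bp in U937) had peaks in both lines, as did TFAM, the packaging and transcription factor of mitochondrial DNA (1040 bp in MV4-11, 1051 bp in U937). CYCS, the electron carrier cytochrome c, did too, with 870 bp in MV4-11 and 889 bp in U937. CYC1, cytochrome c1, is a complex III subunit gene that the symbol rule does not take in. Its peaks were 2139 bp in MV4-11 and 648 bp in U937. Peaks in MV4-11 only were found at COX16 and TACO1, which act in building complex IV, ATPAF1, an ATP synthase assembly factor, COQ10A, a coenzyme Q binding protein gene, and MTERF1, a mitochondrial transcription terminator, with widths from 484 bp (TACO1) to 1127 bp (COQ10A). COX11, a copper chaperone of complex IV, had a 976 bp peak in U937 only. NUBPL, an iron-sulfur assembly factor of complex I, and PPARGC1A, the coactivator of mitochondrial biogenesis, had none in either line.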

How the data were processed

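ZNF217 CUT&Tag in MV4-11 and U937 was analysed from 2 deposited peak lists, with groups taken from the sample titles. Per the submitters' processing notes and the study's methods, the authors aligned reads to hg38 with Bowtie2 2.4.4 and called peaks in each library with MACS3 3.0. Use of the IgG library as control, removal of duplicates and blacklist filtering are not given in the sources used here. The deposited values are of a unit other than signal: chromosome, start and end in bp. Starts may count from 0 or 1, so positions may be off by 1 bp. Without counts, the depth is unknown.

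Positions were compared with GENCODE 44. Canonical means the Ensembl canonical transcript, and complex and role follow textbook knowledge. No p-value was calculated, since each line had 1 library, and shares have exact (Clopper-Pearson) intervals. Occupancy and overlap calls were checked on simulated peaks. The members, lists and motifs were chosen with earlier results of these data known. Named genes were those without a peak in 1 or both lines, isoform and copy pairs, the widest, middle and narrowest of each complex, the 5 highest and 5 lowest width ratios, and those with unshared peaks; other members were named as examples after their values were seen. Alternatives were other windows (500 bp, 3 kb, 1 TSS per gene), peaks of at least 400 bp, lists of equal length, core subunits only, other overlap rules (reciprocal 50%, within 500 bp), summed or merged peaks (under 500 bp apart), members with 1 peak per line, other motif windows and, added after the data were seen, the peaks over the canonical TSS. Members not matched in the RefSeq promoter table (GRCh38.p14) included ATP5F1B, ATP5F1D, ATP5MC3, ATP5MF, ATP5MF-PTCD1, ATP5MGL, COX4I2, COX6C, COX7A1, NDUFAF6, NDUFB5, NDUFB9, NDUFC2, NDUFS5, SDHC, UQCRB and UQCRHL. The values of 1 member are not reported here. Python 3.11.15 was used with SciPy 1.17.1, pandas 2.3.3, NumPy 2.4.6 and Matplotlib 3.10.9.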

Additional observations from a re-analysis of the deposited data

How the results depend on the processing

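Under every window, width and list alternative tried, 86 to 95 of 102 members were occupied in MV4-11. In U937 89 to 92 were occupied, and in both lines 79 to 89. Of the core subunits 72 of 79 were occupied in both lines. These counts stayed within 1.5 times the reported value. That limit is loose here, since counts this near to 102 cannot rise by so much. With lists of equal length the order of the lines turned for the members, at 86 in MV4-11 and 90 in U937, but not over all genes. That setting removed narrow peaks from MV4-11 only, so it does not match the lines in depth. Sharing of member promoter peaks depended on the overlap rule and the list. With a reciprocal overlap of 50% it was 66.1% in MV4-11 and 80.8% in U937, and with lists of equal length 86.0% in MV4-11 and 86.9% in U937. The shares over all promoter peaks under these alternatives are not given here. ETS letters were in 16 of 80 members in the central 300 bp of the widest MV4-11 peak (20.0%, beside 15.4% of all such peaks), and GGGCGGG in 42 of 84 members in 600 bases around the canonical TSS. The cause was not tested. The other 48 alternative values moved by at most 1.5 times (counts) or stayed inside the interval or quartiles of the reported value. Median widths were 942 to 1050 bp in MV4-11 and 903 to 949 bp in U937, and the width ratio 1.05 to 1.14. No paired analysis was possible because each line had 1 library and no comparison came from a test, and no library could be left out.

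The IgG background of these promoters is not analysed here, and depth is unknown, so a missing peak cannot be told apart from too few reads.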

Other observations

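Away from promoters, some ZNF217 peaks had a member's TSS as their nearest within 100 kb. They numbered 52 of 21719 distal peaks in MV4-11, at 33 members, and 31 of 11089 in U937, at 20 members. Of these, 13 of the 52 in MV4-11 and 14 of the 31 in U937 overlapped a peak of the other line. Inside the member's gene lay 13 in MV4-11 and 6 in U937. The same shares over all distal peaks are not given here, so these counts are a description only. COX4I1 had 5 in MV4-11 and 5 in U937, and SDHAF1 had 5 in MV4-11 and 1 in U937.

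COX4I2, whose promoter had a peak in U937 only, had the nearest protein-coding TSS to 3 shared distal peaks. Whether these peaks lay inside another gene was not examined. Their widths were 1101, 1418 and 2393 bp in MV4-11 and 696, 1309 and 1310 bp in U937, and their distances from the TSS were 24092, 29251 and 37797 bp in MV4-11. NDUFA10, without a promoter peak in U937, had a shared peak inside the gene, 1395 bp in MV4-11 and 631 bp in U937. NDUFA12, also without a promoter peak in U937, had the nearest protein-coding TSS to 3 distal U937 peaks. Those of 767 and 444 bp lay inside the gene and overlapped no MV4-11 peak.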
